A study of Mus musculus with 4 samples.

Results

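The actin cytoskeleton and SRF target genes described here are 42 genes named by symbol: the actins, the proteins that cross-link, cap, bend or anchor actin filaments, the intermediate filament gene *Vim*, and genes known as targets of the transcription factors SRF and YAP. All 42 were found among the 48526 Ensembl gene identifiers of the count tables. They were taken from a list of names and not from a cut-off on these counts. That list was chosen with earlier results of these data known. RNA was measured by ribosome-depleted, strand-specific RNA-seq in 2 libraries labelled WT (R1 mouse ESCs, an established line of embryonic stem cells) and 2 libraries labelled KO2 (clone 2 of R1 ESCs in which exon 1 of *Zfp296*, a zinc finger protein gene, was targeted with CRISPR/Cas9). Both were grown on gelatine in medium with serum and LIF, with the MEK inhibitor PD0325901 and the GSK3 inhibitor CHIR99021. KO2 is a single clone, so the targeted gene and any other difference between that clone and the WT culture cannot be told apart. The comparison addresses how the RNA of the clone labelled as a *Zfp296* knockout differs from that of ESCs labelled WT.

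Actin exists in cells as free monomers and as filaments, and RhoA signalling shifts the balance towards filaments. Monomers hold the coactivator MRTF-A, encoded by *Mkl1* (now *Mrtfa*), in the cytoplasm. When filaments form and monomers become few, MRTF-A enters the nucleus and joins SRF on a sequence called the CArG box, which lies near many genes for actin and its partners. YAP and TAZ act with TEAD proteins on the MCAT element, respond to the same mechanical cues and share targets such as *Ctgf* and *Cyr61*. In pluripotent cells the cytoplasmic actins are abundant, while the muscle actins and most smooth muscle contractile genes are nearly silent.

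Some facts of the libraries bear on every value. Counts on genes summed to between 2829914 and 4334499 in the WT libraries and to between 7437294 and 7470907 in the KO2 libraries, so the groups also differ in depth. The targeted gene *Zfp296* was counted 31 times in each WT library, 416 times in KO2 replicate 1 and 282 times in KO2 replicate 2 (log2 fold change 2.31, edgeR adjusted p = 4.55e-05). The RNA of the targeted gene was thus higher in the libraries labelled KO2, although the label names a knockout. The paper states that its knockout clones were checked by mass spectrometry, which measures protein and not RNA. Its methods add that the clonal lines were examined by sequencing. The size and kind of the lesion in clone 2 are not given in the sources used here, and the cause of the rise was not tested. The Y-linked *Ddx3y* was counted 0 and 1 times in WT against 1979 and 2197 times in KO2, *Eif2s3y* 0 and 0 times against 2014 and 2119, and *Uty* 0 and 0 times against 723 and 799. R1 is a male line, so the near absence of Y-linked counts goes against the description of the libraries labelled WT. Whether the libraries or their labels were exchanged was not tested, and an exchange would turn every direction given here. "WT" and "KO2" therefore mean only the libraries labelled so. The 10 ESC markers summed to between 6738 and 6866 CPM (counts per 1000000, scaled by TMM) in WT and between 6645 and 6978 CPM in KO2, and *Sox2* was the only one of them called (log2 fold change -0.79, edgeR adjusted p = 7.84e-05). The 10 fibroblast or feeder markers summed to 14.5 and 25.3 CPM in WT and 17.2 and 17.9 CPM in KO2, with 4 of them at 0 in every library. The neural markers (4 of 5 found) summed to 147 and 142 CPM in WT and 192 and 185 CPM in KO2. Most of this came from *Nes* and *Tubb3*, and neither passed the test (edgeR adjusted p = 0.158 and 0.164). *Pax6* was counted 0 and 1 times in WT against 13 and 6 in KO2, and *Zic1* 1 time in each library. Markers of primitive endoderm, mesoderm and trophectoderm each summed to between 3.07 and 18.2 CPM. The part of these differences in the results was not tested. In bulk RNA, a change in the share of cells of a type and a change in the RNA per cell cannot be told apart.

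Since the members were listed as SRF and YAP targets, their promoters were searched for both elements. RefSeq promoters (GRCm38.p6, from 250 bases before to 50 bases after a start site) matched 36 of the 42 members. *Actb*, *Actg2*, *Plec*, *Tagln*, *Ctgf* and *Tgm2* were not matched, so they were not searched. *Actb*, *Plec* and *Tgm2* were among the members called up between KO2 and WT. A full CArG box was found in 7 of the 36 members (19.4%), against 1.81% of the 27025 genes in the table and 1.63% of all 32851 promoters. Because known targets were listed, this share is a description and no independent evidence. *Actg1* is the gene of cytoplasmic gamma-actin. Of the 36 members searched, it alone had a CArG box and also passed the test between KO2 and WT. Its 250 bases before the start site (chr11:120348496-120348745, minus strand) are shown for that reason, with the box in capitals at bases -90 to -81.
Actg1: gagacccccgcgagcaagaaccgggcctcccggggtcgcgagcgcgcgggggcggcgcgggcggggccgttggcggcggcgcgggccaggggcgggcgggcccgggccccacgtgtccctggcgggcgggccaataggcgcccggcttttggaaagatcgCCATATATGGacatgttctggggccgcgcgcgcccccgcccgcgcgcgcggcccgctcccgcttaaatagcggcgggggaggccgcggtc
For comparison, 30 bases around each other CArG box are given below, again with the box in capitals. These were chosen after the values were seen, to show how the box varies among members that did not pass the test or were not tested. *Srf* has 2 boxes, which lie 10 bases apart, and is itself a known SRF target.
Acta1 (chr8:123894829-123894858, minus strand): tgcccgacacCCAAATATGGcttgggaagg
Myl9 (chr2:156775293-156775322, plus strand): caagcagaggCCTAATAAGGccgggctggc
Myl6 (chr10:128493040-128493069, minus strand): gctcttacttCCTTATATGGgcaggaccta
Cnn2 (chr10:79988534-79988563, plus strand): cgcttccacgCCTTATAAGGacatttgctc
Vcl (chr14:20929161-20929190, plus strand): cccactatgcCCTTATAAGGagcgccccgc
Srf, first box (chr17:46556225-46556254, minus strand): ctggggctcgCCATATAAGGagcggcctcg
Srf, second box (chr17:46556205-46556234, minus strand): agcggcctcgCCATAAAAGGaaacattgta
The genes that hold these boxes range from one of the most abundant RNAs of the group per length (*Myl6*) to RNAs with hardly a count (*Acta1*, *Myl9*).

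The MCAT element is CATTCC, or GGAATG on the other strand, and no match overlapped a CArG box in these members. It was found in 15 of the 36 members (41.7%), against 16.6% of all genes and 14.7% of all promoters. As known targets were listed, this share too is a description and no independent evidence. Changes were compared among the 31 tested members with a promoter. This leaves out *Ctgf* and also *Actb*, *Plec* and *Tgm2*, which were called up. The 5 with a CArG box had a median log2 fold change of 0.31, with 1 called up and 0 down. The 26 without one had a median of 0.30, with 5 called up and 3 down. For MCAT, the 12 members with a match had a median of 0.25 (3 up, 2 down) and the 19 without had a median of 0.31 (3 up, 1 down). A match describes letters in this window and is not evidence of binding, and more distant elements were not searched.

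**Figure D1:**
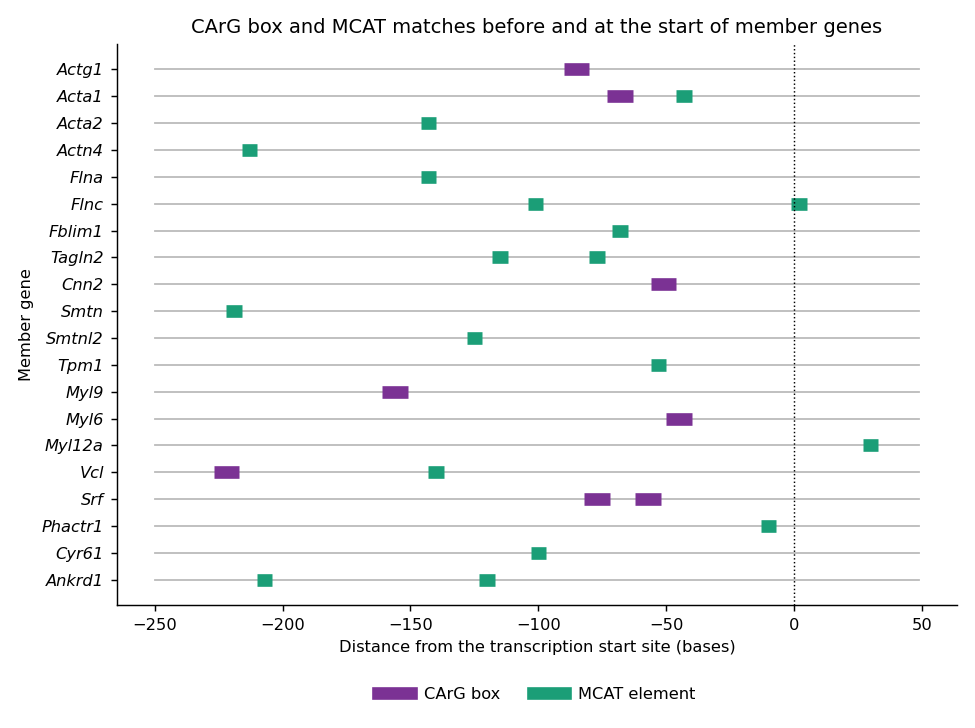
Position of CArG box (purple) and MCAT (green) matches in the promoters of member genes that have either, in bases from the transcription start site (dotted line), one line per gene. The *Actg1* box lies at -90 to -81, *Srf* has 2 boxes, and the marks of *Flnc* are the same letters measured from 2 start sites.

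Across the 42 members, 35 had enough counts to be tested and 12 of these were called between KO2 and WT, 9 up and 3 down (edgeR quasi-likelihood test, Benjamini-Hochberg adjusted p below 0.05 over all 12883 tested genes). That is 34.3% of the tested members, against 5.64% of all tested genes (2.61% up and 3.04% down). Because the members were chosen with earlier results of these data known, their shares and directions are a description and no independent evidence. The median log2 fold change of the tested members was 0.31, with 27 positive and 8 negative values, while the median over all tested genes was 0.01. Both KO2 libraries lay above both WT libraries for 22 members and below them for 5, and the groups overlapped for 8. Of all tested genes, 48.8% had no overlap, with KO2 above for 25.4% and below for 23.4%. The members called up were *Actb*, *Actg1*, *Flnc*, *Plec*, *Tagln2*, *Myh9*, *Phactr1*, *Tgm2* and *Aif1l*, and those called down were *Actn1*, *Fblim1* and *Smtnl2*. The counts depend on the scaling. With ERCC spike-in totals in place of TMM, only *Flnc*, *Phactr1* and *Tgm2* were called, which gives 3 up and 0 down. Without WT replicate 1, the shallowest library, 5 of the 12 calls were kept, and without WT replicate 2 it was 7, although no called member changed its direction under any alternative. Labels call the replicates biological, but separate cultures are not described, so the p-values measure only the spread between these libraries.

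**Figure D2:**
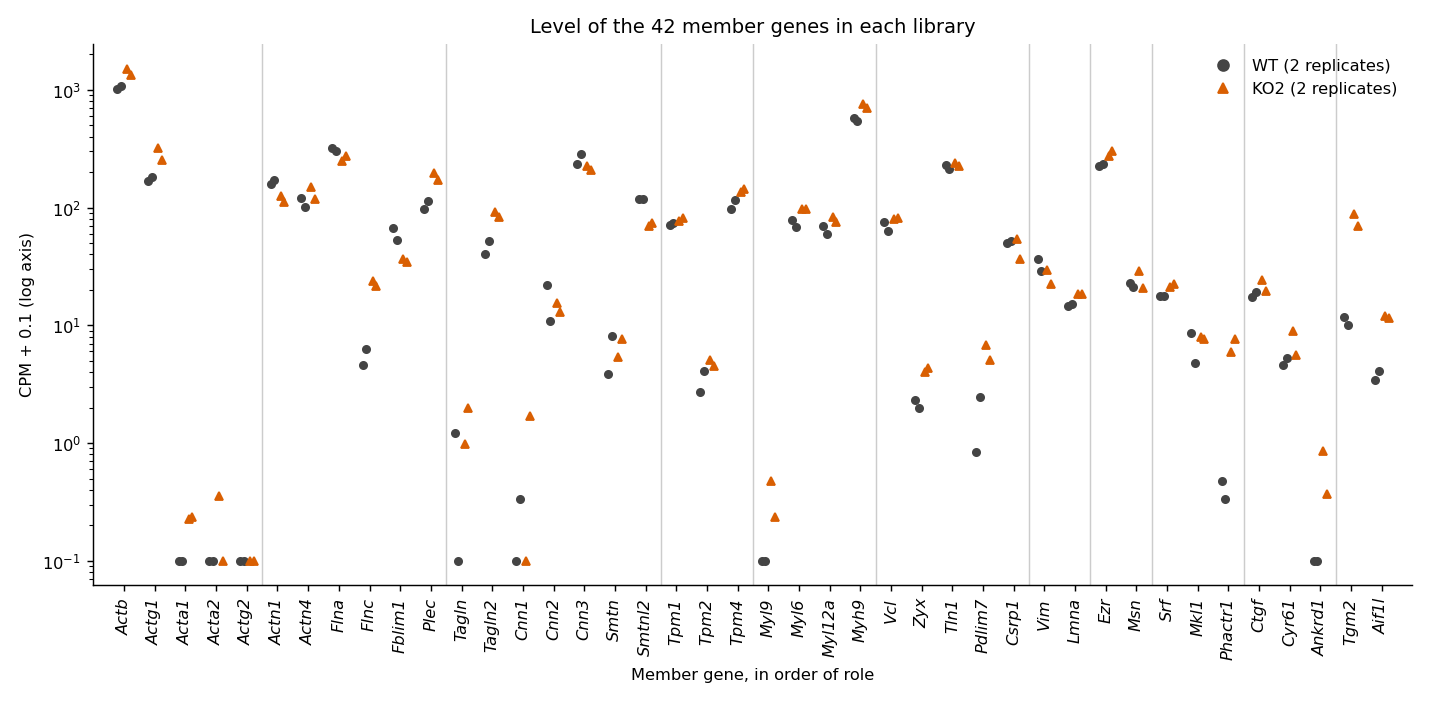
Level of each of the 42 member genes in the 4 libraries, as CPM + 0.1 on a log axis, with genes ordered by role and grey lines between roles (circles WT, triangles KO2, 2 replicates each). *Actb* is highest in every library, 7 genes lie near the bottom, and *Flnc*, *Phactr1*, *Tgm2* and *Aif1l* show the widest gaps between the groups among the called genes.

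Both cytoplasmic actins were higher in KO2. *Actb* (beta-actin; mm9 chr5:143664794-143668433, minus strand) stood at 1018 and 1075 CPM in WT replicates 1 and 2 and at 1512 and 1331 CPM in KO2 replicates 1 and 2. The groups did not overlap, and the difference was 0.44 ± 0.10 on the log2 scale (SE; edgeR adjusted p = 0.0139). *Actg1* (gamma-actin; mm9 chr11:120207004-120209856, minus strand) stood at 167 and 181 CPM in WT and at 322 and 251 CPM in KO2. Here too both KO2 libraries were above both WT libraries, with KO2 replicate 1 the highest (log2 fold change 0.72 ± 0.13, edgeR adjusted p = 0.00218). Per kilobase of exon, *Actb* was the most abundant member in both groups, at 391 ± 15.04 CPM per kb in WT and 531 ± 47.8 in KO2 (SD, n = 2). *Actg1* was at 65.4 ± 3.90 and 108 ± 18.9 CPM per kb, so *Actb* exceeded it 6.06 and 5.89 times in WT and 4.66 and 5.27 times in KO2. Both actins have processed pseudogenes and a near-identical coding sequence, and reads that map to several places were not counted, so their levels are uncertain. The *Actb* call was lost without WT replicate 1, WT replicate 2 or KO2 replicate 1 (edgeR adjusted p = 0.176, 0.0907 and 0.0797), and the *Actg1* call without WT replicate 1 (0.0699).

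The muscle actins were at or near 0 in every library. *Acta1* (skeletal muscle actin) was counted 0 and 0 times in WT against 1 and 1 in KO2, *Acta2* (vascular smooth muscle actin) had 0 and 0 against 2 and 0, and *Actg2* (enteric smooth muscle actin) had 0 in all. None was tested. The other members left untested were also contractile or stress genes with few counts. *Tagln* (SM22, a classical SRF target of smooth muscle) was counted 3 and 0 times in WT against 7 and 14 in KO2. *Cnn1* (calponin 1) had 0 and 1 against 0 and 12. *Myl9* (smooth muscle regulatory light chain) had 0 and 0 against 3 and 1, and *Ankrd1* (a YAP and SRF target) had 0 and 0 against 6 and 2. The highest of these values is 1.87 CPM, and the KO2 libraries were sequenced more deeply. Thus 3 counts stand for 1.12 and 0.71 CPM in WT but 0.38 and 0.40 CPM in KO2. These genes fell below the count filter, so a difference between the groups was not tested. Beside them, the 6 smooth muscle markers summed to 5.96 and 3.78 CPM in WT and 9.89 and 11.8 CPM in KO2. Most of these counts came from *Des* (desmin), with 8, 13, 52 and 70 counts in the order WT 1, WT 2, KO2 1 and KO2 2, which did not pass the test (edgeR adjusted p = 0.147), and *Myocd*, the smooth muscle SRF coactivator, was at 0 throughout. The part of these markers in the values was not tested.

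Among the 6 crosslinkers and linkers of filaments, members moved in both directions. *Flnc* (filamin C, the muscle filamin; mm9 chr6:29383153-29411888, plus strand) had 4.47 and 6.14 CPM in WT and 23.5 and 21.7 CPM in KO2. The groups were far apart (log2 fold change 2.04 ± 0.35, edgeR adjusted p = 0.00139). Per kilobase it nevertheless had the lowest WT level of the 30 members with at least 10 counts in every library, at 0.556 CPM per kb, and 2.36 in KO2. *Plec* (plectin, which ties intermediate filaments to actin and to adhesion sites; mm9 chr15:76001404-76063004, minus strand) had 96.2 and 112 CPM in WT and 197 and 170 CPM in KO2. Both KO2 libraries were clearly above WT (log2 fold change 0.81 ± 0.13, edgeR adjusted p = 9.7e-04). In contrast, *Actn1* (alpha-actinin 1, which bundles filaments; mm9 chr12:81268529-81361358, minus strand) had 158 and 172 CPM in WT and 126 and 111 CPM in KO2. It was lower in both KO2 libraries (log2 fold change -0.48 ± 0.13, edgeR adjusted p = 0.0320). *Fblim1* (migfilin, a filamin partner at adhesion sites; mm9 chr4:141131977-141162011, minus strand) had 67.5 and 52.7 CPM in WT and 36.5 and 34.1 CPM in KO2. This was also a fall with no overlap (log2 fold change -0.75 ± 0.18, edgeR adjusted p = 0.0187). The *Actn1* call was lost when WT replicate 1, WT replicate 2 or KO2 replicate 2 was left out (edgeR adjusted p = 0.0804, 0.155 and 0.176), and that of *Fblim1* without WT replicate 1 or KO2 replicate 2 (0.163 and 0.0524).

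Their close relatives gave no call. *Actn4* (alpha-actinin 4) had 120 and 101 CPM in WT and 148 and 118 in KO2, with overlapping groups (edgeR adjusted p = 0.309). *Flna* (filamin A) had 317 and 300.3 CPM in WT and 249 and 273 in KO2 (log2 fold change -0.24, edgeR adjusted p = 0.243). Whether the paralogues differ from each other in their response was not tested.

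In the calponin and transgelin family, 1 member rose and 1 fell. *Tagln2* (transgelin 2, the form of non-muscle cells; mm9 chr1:174430178-174437511, plus strand) had 39.9 and 51.5 CPM in WT and 92.3 and 82.6 CPM in KO2. The KO2 libraries were higher throughout (log2 fold change 0.92 ± 0.17, edgeR adjusted p = 0.00216), and the call was kept without any 1 library. *Smtnl2* (smoothelin-like 2; mm9 chr11:72202666-72225215, minus strand) had 118 and 117 CPM in WT and 69.5 and 73.5 CPM in KO2. Its replicates agreed closely within each group (log2 fold change -0.72 ± 0.14, edgeR adjusted p = 0.00336), and this call too was kept without any 1 library. *Cnn3* (calponin 3), the second most abundant member per kilobase in WT, had 233 and 287 CPM in WT and 223 and 209 CPM in KO2 (edgeR adjusted p = 0.235). For *Cnn2* (calponin 2) the WT replicates themselves differed, at 21.99 and 10.9 CPM, and enclosed the KO2 values of 15.2 and 12.97 CPM. *Smtn* (smoothelin) likewise had 3.73 and 8.03 CPM in WT around 5.33 and 7.49 CPM in KO2.

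The tropomyosins, which lie along the filament, had positive estimates but no call. *Tpm1* had 70.4 and 74.4 CPM in WT and 76.6 and 81.3 in KO2, and *Tpm4* had 96.2 and 115 CPM in WT and 134 and 143 in KO2 (log2 fold changes 0.12 and 0.38, edgeR adjusted p = 0.716 and 0.112). *Tpm2* was low, from 2.61 to 4.95 CPM over the 4 libraries. Of the myosin genes, *Myh9* (the heavy chain of non-muscle myosin IIA; mm9 chr15:77591017-77672605, minus strand) was called. It had 576 and 541 CPM in WT and 755 and 697 CPM in KO2, a modest difference with no overlap (log2 fold change 0.38 ± 0.10, edgeR adjusted p = 0.0358). This call was lost without WT replicate 1, WT replicate 2 or KO2 replicate 1 (edgeR adjusted p = 0.131, 0.195 and 0.179). The light chains *Myl6* (78.6 and 68.8 CPM in WT, 97.0 and 97.4 in KO2) and *Myl12a* (68.9 and 59.1 CPM in WT, 82.2 and 75.1 in KO2) had estimates of similar size to that of *Myh9*, at 0.41 and 0.30 on the log2 scale, and did not pass the test (edgeR adjusted p = 0.115 and 0.290). *Myl12a* has a near-identical neighbour, *Myl12b*, and *Myl6* has pseudogenes, so both values are uncertain.

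None of the 5 adhesion site genes passed the test. *Vcl* (vinculin) and *Tln1* (talin 1), which join integrins to actin, had 75.3 and 63.6 against 79.9 and 81.4 CPM, and 228 and 213 against 240.2 and 226 CPM, for WT and KO2. *Pdlim7* (a PDZ and LIM domain protein of filaments) had 0.745 and 2.36 CPM in WT and 6.72 and 4.95 CPM in KO2, a large estimate on few counts (log2 fold change 1.75 ± 0.65, edgeR adjusted p = 0.136). *Zyx* (zyxin) had 2.24 and 1.89 CPM in WT and 3.93 and 4.28 CPM in KO2, also without overlap (log2 fold change 1.01 ± 0.64, edgeR adjusted p = 0.421). *Csrp1* (a LIM protein and SRF target) ranged from 36.8 to 54.4 CPM in KO2 around the WT values of 49.9 and 51.7. Vimentin and the nuclear lamina gave no call either. *Vim* had 36.1 and 28.8 CPM in WT and 29.3 and 22.3 in KO2, and *Lmna* had 14.5 and 15.1 against 18.5 and 18.4 (edgeR adjusted p = 0.502 and 0.605). The linkers of actin to the membrane, *Ezr* (ezrin) and *Msn* (moesin), had 226 and 236 against 273 and 299 CPM, and 22.7 and 21.0 against 28.7 and 20.7 CPM. Neither was called (edgeR adjusted p = 0.130 and 0.761), and *Ezr* was among the more abundant members per kilobase, at 70.1 CPM per kb in WT and 86.8 in KO2.

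**Figure D3:**
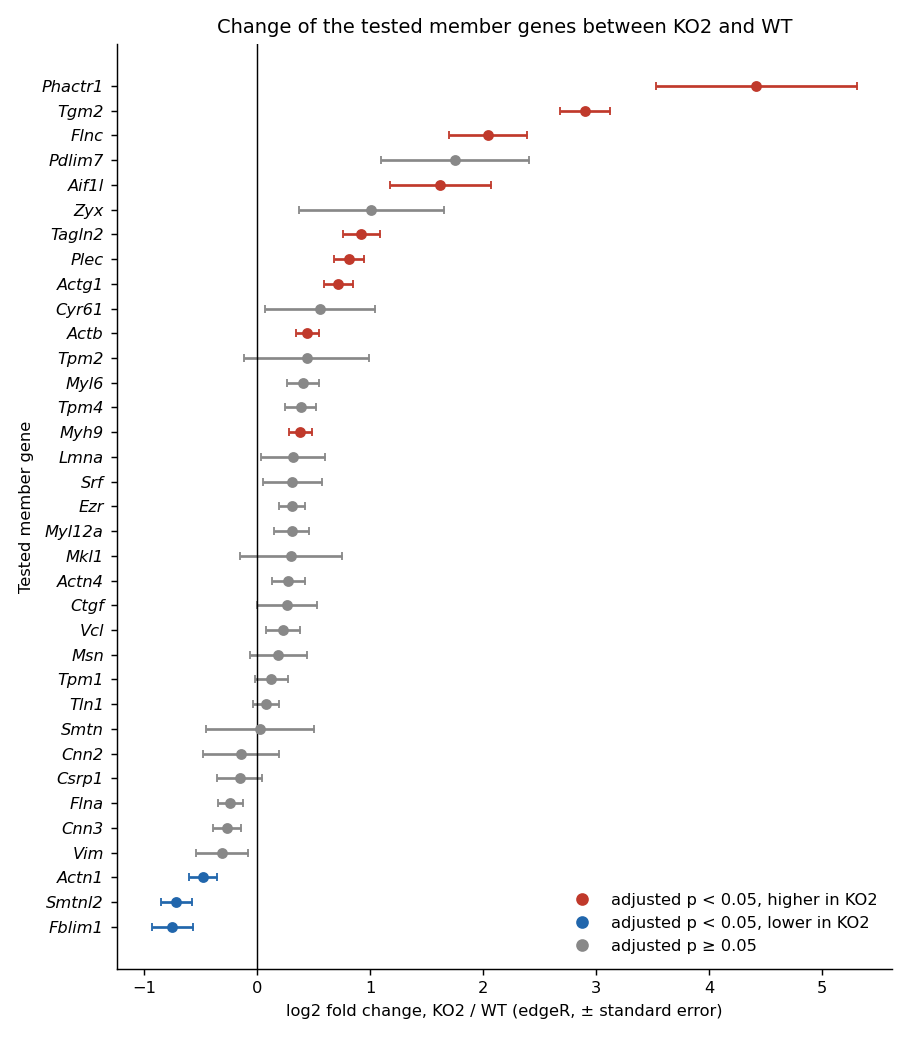
Log2 fold change of KO2 against WT for the 35 tested member genes, with the standard error of the edgeR fit as horizontal bars. Red points passed the test upwards (9 genes), blue points downwards (3 genes) and grey points did not pass it (23 genes); *Pdlim7* and *Zyx* have large estimates with wide errors.

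The genes of the switch itself were mostly uncalled. *Srf* had 17.5 and 17.5 CPM in WT and 20.9 and 22.5 CPM in KO2, slightly higher in both (log2 fold change 0.31 ± 0.26, edgeR adjusted p = 0.570). *Mkl1* had 8.57 and 4.73 CPM in WT and 7.86 and 7.62 CPM in KO2, within the spread of the WT replicates (edgeR adjusted p = 0.785). *Phactr1*, whose product binds actin monomers through the same RPEL motif as MRTF-A and regulates protein phosphatase 1, was different (mm9 chr13:42775992-43233895, plus strand). It was counted once in each WT library, against 46 and 56 times in the KO2 libraries, or 0.37 and 0.24 against 5.83 and 7.49 CPM. The ratio of the summed counts, scaled by depth, was 22.9 with a 95% interval of 6.19 to 192 that covers counting error only. *Phactr1* passed the count filter only through the KO2 libraries, so its p-value is no independent support. With at least 10 counts required in every library, it was not tested. The edgeR adjusted p was 0.00456, and 0.0507 without WT replicate 1 and 0.0730 without WT replicate 2. The shared YAP and SRF targets *Ctgf* (now *Ccn2*) and *Cyr61* (now *Ccn1*), both secreted matricellular proteins, had 17.1 and 18.9 against 24.1 and 19.4 CPM, and 4.47 and 5.20 against 8.88 and 5.48 CPM. Neither passed the test (edgeR adjusted p = 0.650 and 0.594).

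The remaining pair of members rose in KO2. *Tgm2* (transglutaminase 2, which cross-links proteins; mm9 chr2:157942138-157972172, minus strand) had 11.6 and 9.92 CPM in WT and 88.4 and 70.2 CPM in KO2. Its KO2 level was 7.46 times that of WT (log2 fold change 2.90 ± 0.22, edgeR adjusted p = 9.26e-08), and it was the only member called under all 12 alternatives, with estimates between 2.73 and 3.06. Per kilobase it moved from rank 27 of 30 in WT to rank 16 in KO2. *Aif1l* (allograft inflammatory factor 1-like, an actin-binding protein; mm9 chr2:31805780-31828962, plus strand) had 3.35 and 4.02 CPM in WT and 11.8 and 11.4 CPM in KO2. The groups were well apart (log2 fold change 1.62 ± 0.45, edgeR adjusted p = 0.0408), but the adjusted p was 0.107 with DESeq2 and between 0.0621 and 0.136 when any of the 4 libraries was left out.

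**Figure D4:**
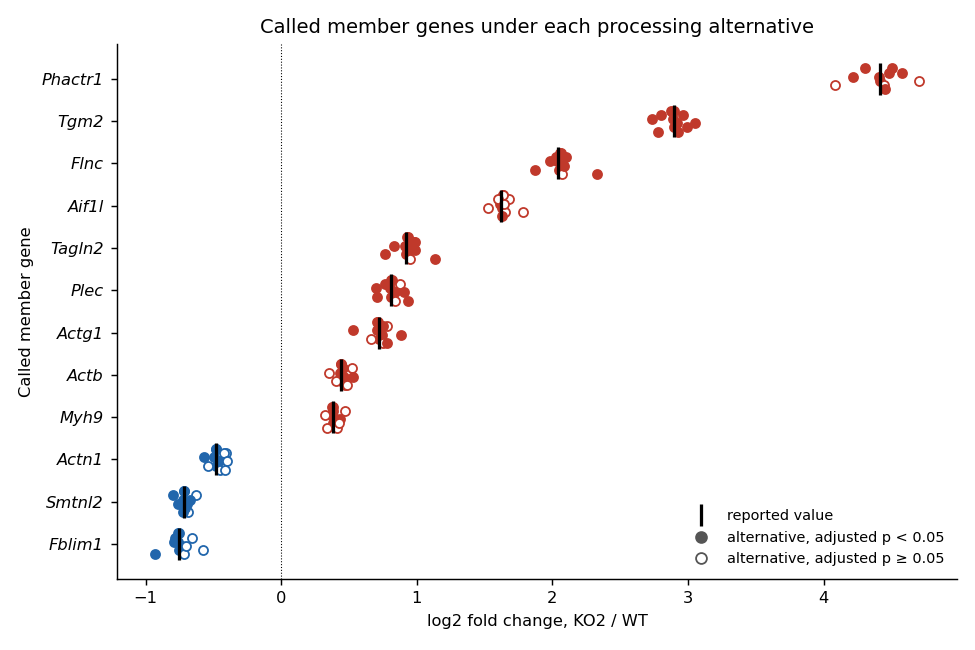
Log2 fold change of the 12 called member genes under each processing alternative, with the reported value as a black bar and filled or open circles for alternatives in which the gene did or did not pass adjusted p < 0.05. Every point keeps its side of 0, and *Tgm2* is filled throughout.

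The rest of the pathway was read from 5 lists of other genes, 123 in all, also chosen with earlier results of these data known. Of these, 108 were tested and 13 were called, 9 up and 4 down (12.04%, beside 5.64% of all tested genes). With ERCC scaling 2 of the 13 calls were kept, and some of the 13 were lost whichever 1 library was left out. Of 25 tested SRF cofactors and RhoA signalling genes, 3 were called up and 0 down, with a median log2 fold change of 0.23. *Rhoa*, the GTPase that drives filament assembly, had 149 and 127 CPM in WT and 273 and 241 CPM in KO2. Both KO2 libraries were well above WT (log2 fold change 0.90 ± 0.13, edgeR adjusted p = 1.86e-04), and the call was kept without any 1 library. *Rhob*, a short-lived relative, had 3.73 and 6.14 CPM in WT and 17.1 and 17.2 CPM in KO2 (log2 fold change 1.73, edgeR adjusted p = 0.0107, and 0.0756 without WT replicate 1). *Tmsb4x* (thymosin beta 4, which sequesters monomers) had 30.2 and 21.0 CPM in WT and 47.2 and 50.3 CPM in KO2 (log2 fold change 0.96, edgeR adjusted p = 0.0101, and 0.103 without WT replicate 2). The kinases *Rock1* and *Rock2* downstream of RhoA had log2 fold changes of -0.04 and -0.09 and were not called.

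The immediate-early SRF targets, which serve the growth factor branch of SRF regulation, gave no call among the 5 tested of 9. *Fos* was counted 1 and 3 times in WT against 22 and 27 in KO2 (edgeR adjusted p = 0.130), *Egr1* had at most 2 counts in any library, and *Mcl1*, the most abundant, had a log2 fold change of -0.21 (edgeR adjusted p = 0.296). Of the 16 Hippo-YAP pathway genes, all tested, 1 rose and 1 fell, with a median of 0.02. *Wwtr1*, which encodes the YAP paralogue TAZ, had 91.7 and 88.4 CPM in WT and 57.4 and 59.8 CPM in KO2 (log2 fold change -0.62, edgeR adjusted p = 0.0165). *Tead2* had 76.4 and 67.8 CPM in WT and 108 and 96.6 CPM in KO2 (log2 fold change 0.51, edgeR adjusted p = 0.0446). Each call was lost when any library other than KO2 replicate 2 was left out, with adjusted p from 0.05405 to 0.09004 for *Wwtr1* and from 0.08755 to 0.259 for *Tead2*. *Yap1* itself had 224 and 208 CPM in WT and 206 and 201 CPM in KO2. Of 16 tested other YAP targets, 1 was called, *Myof* (myoferlin, a membrane repair protein), which was lower in KO2 (log2 fold change -0.42, edgeR adjusted p = 0.0346, and between 0.0795 and 0.144 when any 1 library was left out).

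Of 46 tested paralogues and other actin-binding proteins, 5 were called up and 2 down, with a median log2 fold change of 0.10. *Gsn* (gelsolin, which severs and caps filaments) had 3.35 and 4.73 CPM in WT and 28.0 and 26.2 CPM in KO2. It was the largest called change of the 5 lists (log2 fold change 2.69, edgeR adjusted p = 8.69e-05) and was called under all 11 alternatives that tested it. *Arpc1b* (a subunit of the Arp2/3 complex that starts branched filaments) was higher (log2 fold change 0.76, edgeR adjusted p = 0.00284, and 0.05045 without WT replicate 1), while *Actr3* of the same complex was lower (-0.41, adjusted p = 0.0434, and between 0.102 and 0.204 without any 1 library). *Lcp1* (L-plastin, a bundling protein; log2 fold change 0.89, adjusted p = 0.0140) lost its call without WT replicate 2 (0.1004) or KO2 replicate 1 (0.05764). *Lasp1* (0.59, adjusted p = 0.0360) lost it without WT replicate 1, WT replicate 2 or KO2 replicate 1 (0.215, 0.05729 and 0.3327). *Cald1* (caldesmon, which stabilizes filaments; -0.51, adjusted p = 0.0320) lost it without WT replicate 2 or KO2 replicate 2 (0.3235 and 0.07031).

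**Figure D5:**
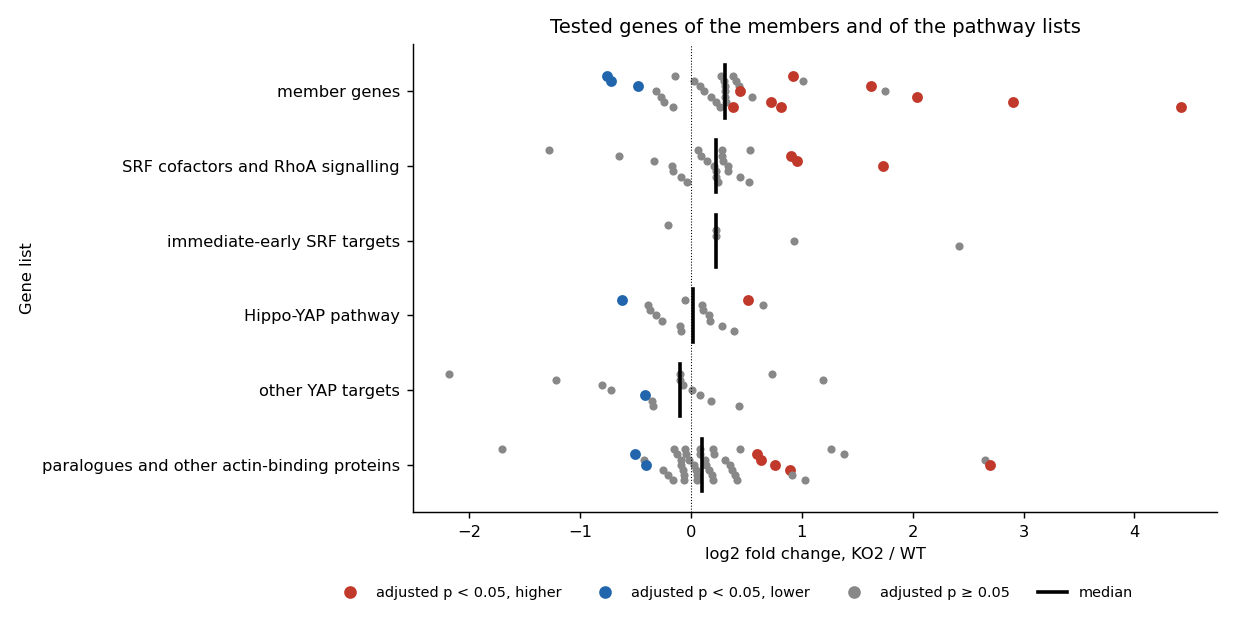
Log2 fold change of KO2 against WT for the tested genes of the member group and of the 5 pathway lists, one point per gene, with red for genes called up, blue for genes called down, grey for the rest and a black bar at each list's median. The medians are 0.31 for the members, 0.23, 0.22, 0.02 and -0.10 for the next 4 lists, and 0.10 for the paralogues and other actin-binding proteins.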

How the data were processed

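The authors mapped strand-specific RNA-seq reads to mm9 with hisat2 and counted them per gene with HTSeq, and they deposited the raw counts of each library without normalization. They analysed their counts with DESeq2. Tool versions, the counting annotation and the strand option are not given in the sources used here. Rows that name no gene held 52.9% to 58.8% of all counted reads, largely reads that map to several places, and stayed out of library sizes and tests, as did the 92 ERCC spike-in rows. Symbols and mm9 coordinates came from GENCODE vM1 for 32782 of 48526 identifiers. The annotation lists *Myl12a* as 2900073G15Rik.

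Genes were kept by filterByExpr (minimum count 10, minimum total 15), scaled by TMM (factors 0.952, 0.980, 1.06 and 1.01) and tested with edgeR 4.0.16 (glmQLFit and glmQLFTest, R 4.3.3) with group as the only term. The biological coefficient of variation was 0.150. Adjusted p-values are Benjamini-Hochberg values over the 12883 tested genes, with a threshold of 0.05, and errors are the SE of the fit or the SD of 2 replicates. The fit was tested on simulated data. CPM per kb divides by the length of the union of a gene's exons. A gene's counting floor was set at 3 counts. The replicates of a group correlated at 0.953 (WT) and 0.978 (KO2) over log2 CPM, and both pairs differed by more than counting noise. All members were named, and of each pathway list the called genes, except 1 that is not reported here. *Rock1*, *Rock2*, *Fos*, *Egr1*, *Mcl1*, *Yap1*, *Des*, *Sox2*, *Nes*, *Tubb3*, *Pax6* and *Zic1* were named after their values were seen. The members and lists were chosen with earlier results of these data known. Alternatives were RLE and ERCC scaling, 2 other filters, DESeq2 1.42.0, the older edgeR quasi-likelihood method, a replicate block, thinned counts and leaving out each library.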

Additional observations from a re-analysis of the deposited data

How the results depend on the processing

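Among all tested genes, 336 were called up and 391 down. ERCC scaling gave 90 and 73, no filter on low counts gave 29 and 32, and DESeq2 gave 189 and 265. Leaving out 1 library gave 122 to 341 up and 148 to 350 down, where the lone library left in a group is assumed to vary like the others. Of the members, 9 were called up and 3 down. ERCC scaling gave 3 and 0, and no filter gave 1 and 0, with more genes tested (25397). Leaving out 1 library gave 4 to 8 up and 1 to 3 down. The 13 called pathway genes became 2 with ERCC scaling, 2 without a filter and 6 to 13 with 1 library left out. Allowing 1 mismatch, 14 members held a CArG box in place of 7, against 23.7% of all genes.

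The replicate numbers did not pair the libraries (correlation of deviations -0.00658). With the number as a replicate block, 476 genes were called up and 474 down, and all 12 member calls were kept, as they were with RLE scaling and the older quasi-likelihood method. Thinning to the smallest library kept 10 of the 12, without *Actn1* (adjusted p = 0.0880) and *Aif1l* (0.0611).

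Some uncalled members changed sign when 1 library was left out, with log2 fold changes from -0.64 to 0.37 for *Cnn2*, -0.33 to 0.78 for *Smtn*, -0.15 to 0.71 for *Mkl1*, -0.06503 to 0.39 for *Msn* and -0.47 to 0.09051 for *Csrp1*. The sign changed without WT replicate 1 for *Cnn2* and *Smtn* (the latter also -0.25 without KO2 replicate 2), without WT replicate 2 for *Mkl1*, without KO2 replicate 1 for *Msn* and without KO2 replicate 2 for *Csrp1*. The cause was not tested. The 2 WT libraries set the limit of depth, since the shallower holds 2829914 gene counts.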
